A study of Mus musculus with 24 samples.

Results

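The genes described here are 7 regulators and markers of the neural lineage, namely Pax6, Sox1, Nes, Neurog1, Neurog2, Olig2 and Zic1, out of 21938 protein-coding genes. They were chosen by name, and their positions were taken from the GENCODE vM21 annotation of the mouse genome build GRCm38 (mm10). All 7 were found. For each gene, peaks were read within 1 kb of its annotated transcription starts, called its promoter here, and over the gene body with 50 kb on either side, called its locus here. The peaks came from ATAC-seq, in which a transposase inserts adapters into open chromatin, with 1 list of peaks for each of 24 libraries.

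In embryonic stem cells these genes are held largely silent, and their promoters are known for carrying both an activating and a Polycomb-deposited repressive histone mark. As cells commit to the neural lineage, Sox1 is switched on in the early neuroectoderm and Pax6 and Nes mark neural progenitors. Neurog1 and Neurog2 drive progenitors into neuronal differentiation, Olig2 specifies motor neurons and oligodendrocytes, and Zic1 acts at the neural plate border and in the dorsal neural tube and cerebellum. CTCF is a zinc-finger protein that binds a long DNA motif and halts loop extrusion by cohesin. Chd4, the motor of the NuRD complex, and Chd8 are chromatin remodellers.

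All libraries came from E14 mouse embryonic stem cells in which the endogenous CTCF carried an auxin-inducible degron (AID), so that the auxin IAA removes the protein. There were 12 groups of 2 libraries. The CTCF-line set of 8 libraries held cells with an overexpression control, without IAA or with 12 hours of IAA, and cells overexpressing wild type CTCF or mutated CTCF, both with 12 hours of IAA. The Chd4 set and the Chd8 set held 6 libraries each, all without IAA, with shluci as the control hairpin and shRNA1 and shRNA2 as the hairpins against the remodeller. The serum set of 4 libraries held CTCF AID cells without an overexpression construct in the label, in serum, without IAA or with 12 hours of IAA. The growth protocol describes a serum-free medium with LIF and the inhibitors PD0325901 and CHIR99021 for all samples, and the 4 serum libraries differ from it by their label. The labels do not say which mutation the mutated CTCF carried, whether a line was a clone, or whether the 2 libraries of a group came from separate cultures, so the spread between them may be technical.

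As deposited, the CTCF-line lists held 120137 to 155087 peaks, the Chd4 lists 80619 to 141742, the Chd8 lists 135410 to 166697 and the serum lists 59786 to 82502. A longer list calls more sites, so within each set the lists were reduced to the length of the shortest by the −log10 p given for each peak, and these equal-length lists were used unless stated otherwise. Median peak length was 283 to 456 bp for the CTCF lines and 371 to 417 bp for serum. Peaks of the Chd sets were shorter, with medians of 80 to 135 bp (Chd4) and 75 to 138 bp (Chd8), so calls are not compared as levels between these and the other libraries. Whether a promoter or a start was called is given from the lists as deposited, and its percentile from the equal-length lists. Promoters of 9 of 10 embryonic stem cell markers were called in every CTCF-line library and every serum library, with Dppa3 the exception. They were called in all 6 libraries for 5 of 10 in the Chd4 set and for 7 of 10 in the Chd8 set. Of 8 fibroblast markers, Postn and Lum had a promoter peak in none of the 24 libraries and Col3a1 and Dcn in 1 each, while Col1a1 had one in 24, Col1a2 in 23 and Thy1 and Pdgfrb in 18 each. All 8 CTCF-line libraries called 4 of the 8, and the part of other cells in the results was not tested.

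Non-overlapping windows reaching 250 bp to either side of a peak summit, called sites here, were used to follow single places across libraries. Of 233707 sites called by at least 2 libraries, 147 lay in the 7 loci: 31 at Nes, 24 at Sox1, 21 each at Pax6 and Zic1, 19 at Neurog1, 16 at Neurog2 and 15 at Olig2. A member site was called by a median of 12 libraries, against 9 over all sites. Sites are named by the distance of their centre from the outermost start of the gene, positive in the direction of transcription. Strength is given as the percentile of a peak's −log10 p within its own list, where 100 is the strongest.

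All 24 libraries called 6 of the 147 sites, and over all sites 3.72% were called in all 24. Of these, 5 are described here. Nes had 1, at 3.53 kb, in the second intron of the gene. That intron is known for an enhancer active in neural progenitors. Zic1 had 1 at 3.81 kb, also in the second intron, and a site of the Olig2 locus at 44.2 kb lies 78 bp from the start of Olig1. Pax6 had 1 at 6.50 kb, over exons of its downstream starts, and Neurog2 had 1 at 0.918 kb, in its coding exon. The central 201 bp of the intronic sites of Nes and Zic1 are shown because they were called in every library. None of the motifs searched for falls in these stretches, so they hold no capitals. The whole Nes site does hold an E-box (CAGCTG) outside its central stretch, and the whole Zic1 site holds no motif searched for. They are given on the plus strand of GRCm38, and the positions are chr3:87974519-87974719 for Nes and chr9:91361899-91362099 for Zic1.

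Nes site at 3.53 kb: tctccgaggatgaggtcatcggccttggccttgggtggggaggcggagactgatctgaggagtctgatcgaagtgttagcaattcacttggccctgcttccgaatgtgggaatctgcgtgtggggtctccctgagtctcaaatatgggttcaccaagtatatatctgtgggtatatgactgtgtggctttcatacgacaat
Zic1 site at 3.81 kb: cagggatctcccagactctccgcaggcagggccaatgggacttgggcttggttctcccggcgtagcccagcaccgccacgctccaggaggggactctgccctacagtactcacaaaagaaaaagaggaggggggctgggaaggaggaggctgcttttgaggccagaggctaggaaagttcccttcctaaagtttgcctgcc

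The Nes intronic site was the strongest of the member sites away from a start, with a mean percentile of 91.6 over the 24 libraries. It lay between 95.7 and 98.6 in the CTCF-line set and between 83.6 and 92.2 in the serum set. In the Chd4 set its percentile was 97.1 and 98.0 with shluci, 97.2 and 84.1 with shRNA1, and 28.4 and 77.6 with shRNA2. The 2 shRNA2 libraries were therefore the lowest of that set. In the Chd8 set it ranged from 93.9 to 99.7. The Zic1 intronic site was at 42.3 to 69.3 in the CTCF-line set and at 91.5 to 94.1 in the serum set.

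Sequence composition set the member sites slightly apart. Their median GC content was 55.5%, against 49.1% over all sites, and their median observed-to-expected CpG ratio was 0.468 against 0.245. The CTCF consensus of 14 bp, allowing 1 mismatch on either strand, occurred in 7 of 147 member sites (4.76%) and in 5.57% of all sites. The POU core ATGCAAA occurred in 16 (10.9%) against 10.6%, and the E-box CAGCTG, which bHLH proteins such as Neurog1, Neurog2 and Olig2 can bind, in 49 (33.3%) against 28.3%. Both strands were searched, and an E-box can fall inside a CTCF match, as it does in the Olig1 coding exon.

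The promoters of Pax6 and Neurog2 were called in all 24 libraries, and 2 of 7 compares with 28.8% of all protein-coding genes. The other 5 were called in 17 libraries for Sox1, 18 for Nes, 19 each for Neurog1 and Zic1 and 20 for Olig2, in the lists as deposited. All 7 promoters were called in all 8 libraries of the CTCF-line set and all 4 of the serum set, so every missing call fell in the Chd4 or the Chd8 set. In the Chd4 set Sox1 and Neurog1 were called in 2 of 6 libraries, Nes in 1, Zic1 in 3 and Olig2 in 4. In the Chd8 set Sox1 was called in 3 of 6, Olig2 and Zic1 in 4 and Nes and Neurog1 in 5. Over all protein-coding genes, 67.4% of promoters were called in all 8 CTCF-line libraries, 30.1% in all 6 of the Chd4 set, 55.2% in all 6 of the Chd8 set and 62.7% in all 4 serum libraries.

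Promoter strength in the CTCF-line set was highest at Neurog2 in 7 of 8 libraries, at 87.5 to 90.7 over all 8, and lowest at Zic1 in all 8, at 42.2 to 56.6. In the first IAA library of the control line Olig2, at 88.3, was above Neurog2, at 87.5. Sox1 at 81.3 to 86.9, Pax6 at 74.3 to 84.7 and Olig2 at 75.7 to 88.3 overlapped one another, as did Nes at 66.2 to 83.6 and Neurog1 at 64.9 to 78.6. In the serum set Neurog2 was again highest, at 82.5 to 95.2, and Zic1 ranged from 20.5 to 46.4, overlapping Olig2 at 29.9 to 75.8. Neurog1 differed by hairpin in the Chd4 set: both shluci libraries called its promoter, at 20.5 and 35.5, and none of the 4 shRNA libraries did, as at 2.12% of coding genes. For Sox1 the order was the opposite in the deposited lists, with both shRNA1 libraries and neither shluci nor shRNA2 libraries calling it. Both shRNA1 and neither shluci library called 1.41% of coding promoters. In the equal-length lists 1 shRNA1 library kept that call, at a percentile of 0.6. The GC content of the 500 bp on either side of the start ranged from 55.1% for Zic1 to 68.8% for Neurog1, where the median of coding genes was 55.2%.

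**Figure D1:**
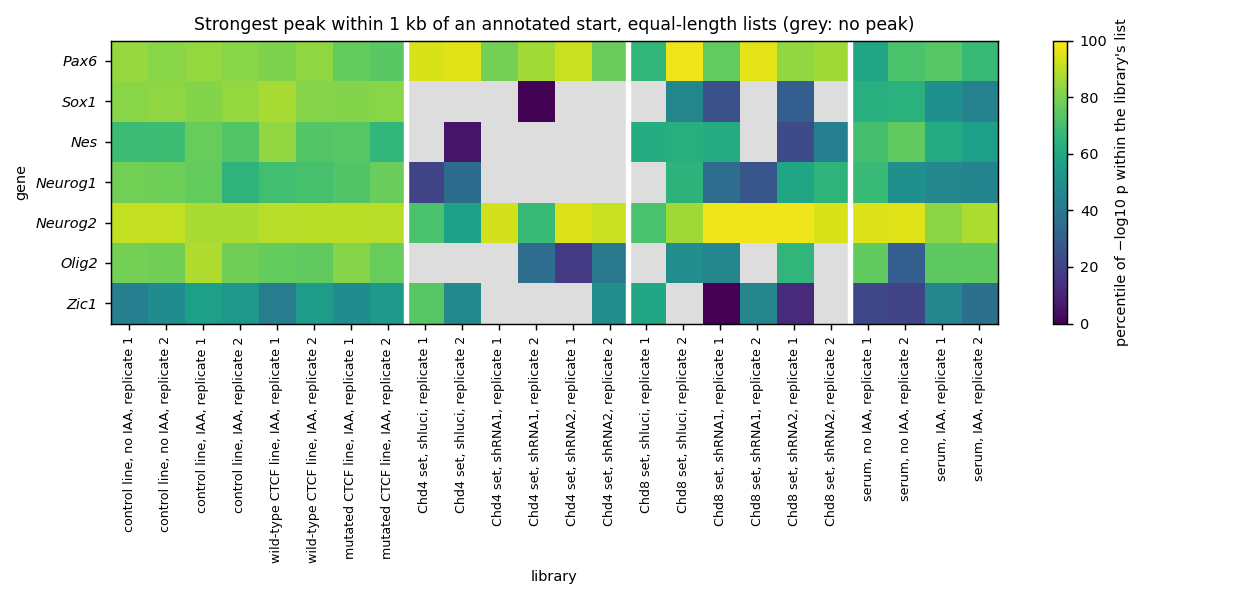
Percentile of the strongest peak within 1 kb of an annotated start (colour) for the 7 genes (rows) in the 24 libraries (columns), from lists of equal length within a set; grey marks a promoter without a peak and white lines part the sets. Pax6 and Neurog2 are coloured in every column, while the grey cells of the other 5 genes all lie in the Chd4 and Chd8 sets.

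Pax6 had 8 annotated starts, and they were not equally open. The start at position 105668900 of chromosome 2 was called in 21 libraries, the one at 105671860 in none, and the 6 from 105675191 to 105676129 in all 24. The outermost start lost its call in 1 library of the Chd4 set and 2 of the Chd8 set. Nes and Zic1 had 2 close starts each and Sox1, Neurog1, Neurog2 and Olig2 had 1.

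**Figure D2:**
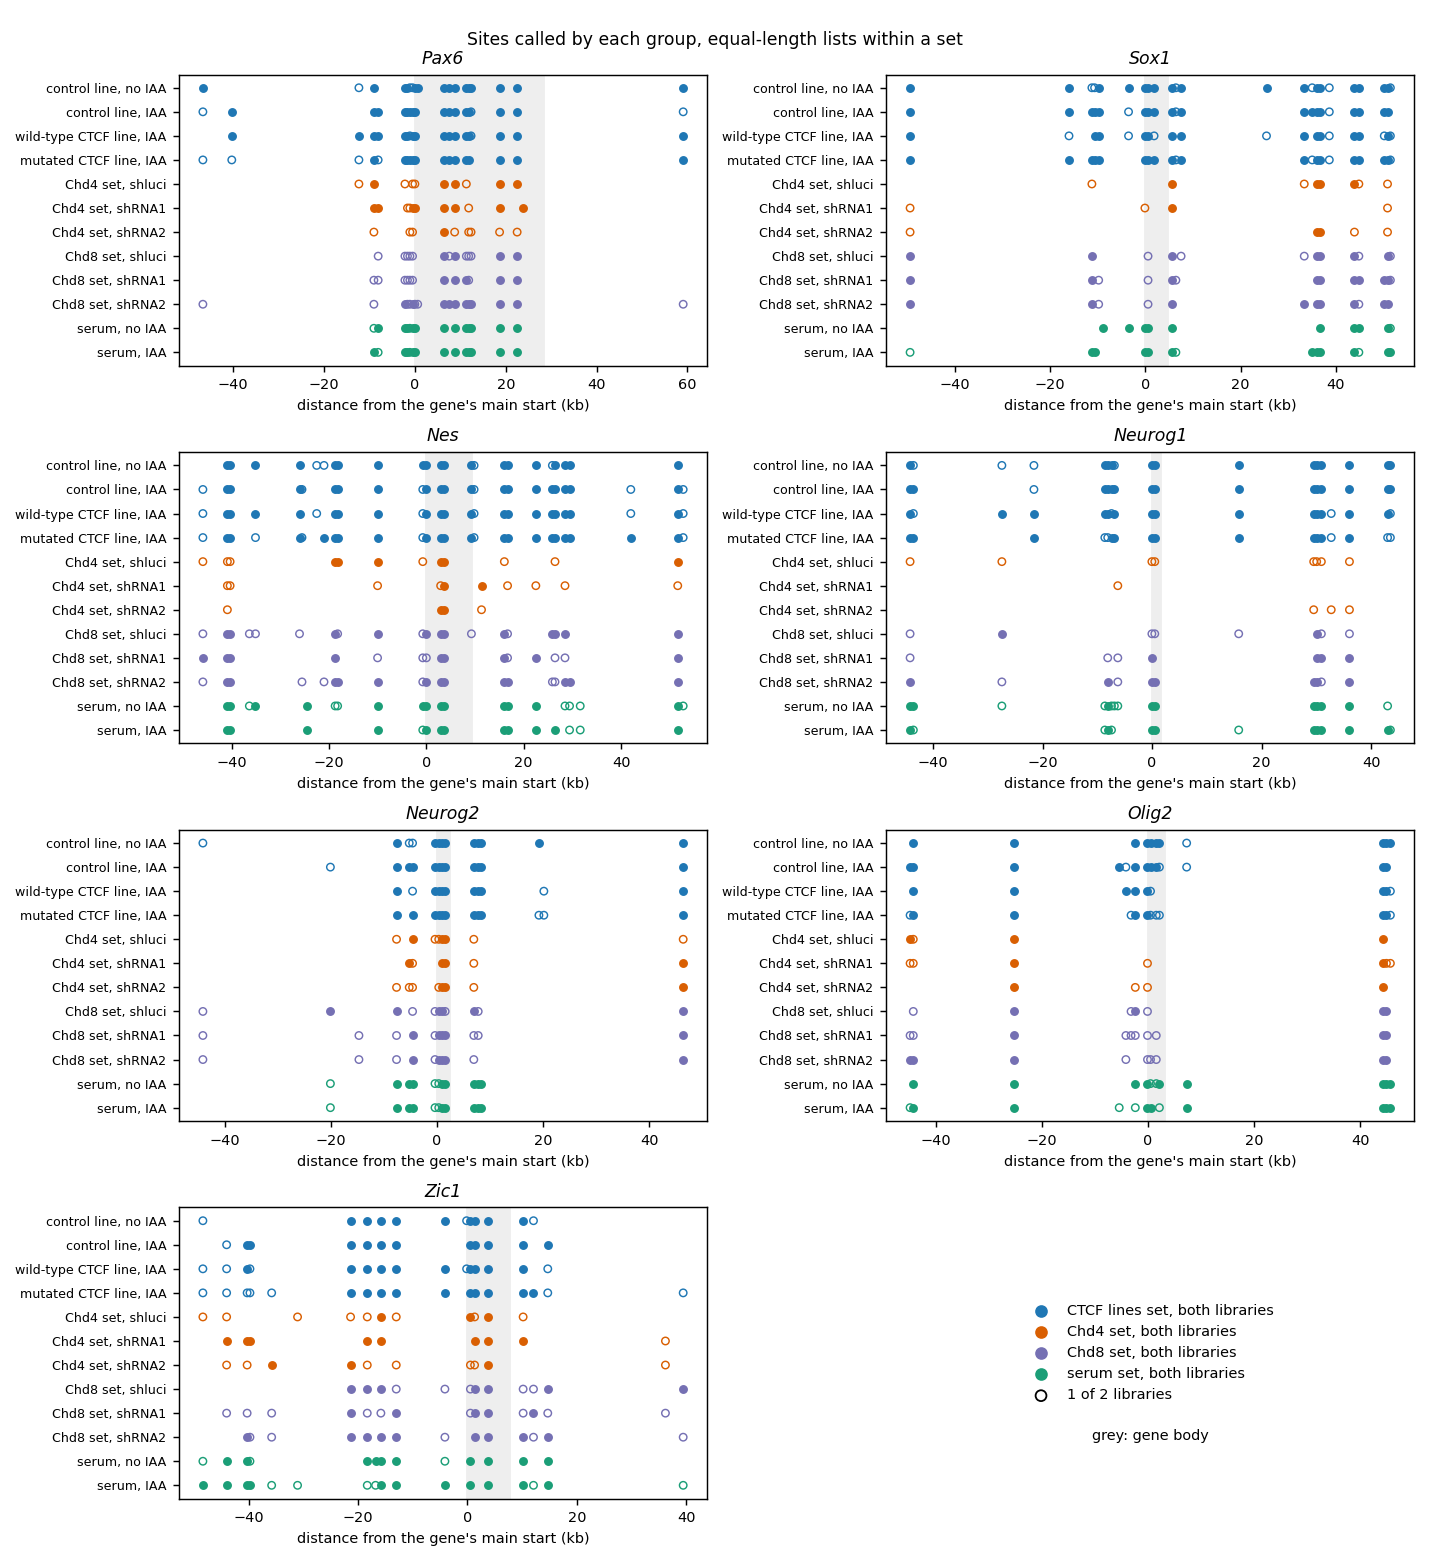
Sites called in the 7 loci (panels), by distance from the outermost start of the gene in kb (horizontal) and group (rows); a filled circle is a site called by both libraries of the group, an open circle by 1 of 2, and the grey band is the gene body. Lists have equal length within a set. Calls fall largely in the same columns across the CTCF-line groups, and upstream of Zic1 both serum and CTCF-line groups have calls.

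The 7 member sites with the CTCF consensus are shown because the study removed CTCF, whose binding was not measured in these lists. They are given on the strand of the motif with 8 bases on either side, and the capitals mark the consensus match. The Nes sites at −35.1 and 16.0 kb matched without a mismatch and the other 5 with 1.

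Pax6 site at −9.04 kb, chr2:105659811-105659824, plus strand, in an exon of the noncoding RNA Paupar: agccccccGCACCAGGGGGCGGgggctggg
Nes site at −35.1 kb, chr3:87935900-87935913, plus strand, in an intron of Isg20l2: ctgggtggCCACCAGAGGGCACcattgctc
Nes site at −0.751 kb, chr3:87970264-87970277, plus strand, intergenic: atgcttagCCACCAGGGGGCTCtcttgaga
Nes site at 16.0 kb, chr3:87987142-87987155, minus strand, intergenic: ggctgtgaCCAGTAGAGGGCGCtgcagata
Neurog2 site at 0.918 kb, chr3:127634265-127634278, plus strand, in the coding exon: gccggtggCCTCCAGGGGGCGCtcttcacg
Neurog1 site at −27.4 kb, chr13:56279619-56279632, plus strand, intergenic: taaagtggCCACAAGGTGGCGCttttgcac
Olig2 site at 44.9 kb, chr16:91270546-91270559, plus strand, in the coding exon of Olig1: tctctctcCCAGCTGGTGGCGCgggtagcc

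The Nes site at −35.1 kb was the only one of the 147 that both untreated libraries called and neither IAA library called in both media. Without IAA it stood at percentiles of 56.9 and 37.6 in the control line and at 39.9 and 37.5 in serum, and with IAA it was called in none of the 4 libraries. In the line overexpressing wild type CTCF both IAA libraries called it, at 12.9 and 46.2, and in the line with mutated CTCF 1 of 2 did, at 31.7. It was called in no Chd4-set library and in 1 Chd8-set library, with shluci, at 44.5. Over all sites 0.651% were lost on degradation in both media, which is close to 1 of 147, and 0.0659% were gained in both, with 0 of 147. At a −log10 q of at least 10 no serum library called the Nes site, and 1 of 2 libraries called it in the wild-type line and in the mutated line alike. With all lists at 59786 peaks it was called in 1 of 2 untreated control-line libraries and in neither wild-type library. The pattern in the CTCF-line set thus rests on peaks of middling to low rank, down to 12.9 in the wild-type line. With deposited lists, or with a summit required in the site, the group calls were those given above, and with peaks covering 50% of the site it was called in 1 of 2 untreated control-line and 1 of 2 wild-type libraries.

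The other sites with the consensus kept calls after IAA in at least 1 medium or had few to begin with. The Neurog2 coding-exon site was called in all 24 libraries, at 90.7 and 88.8 in the untreated control line, 71.8 and 67.8 with IAA, 82.1 and 82.0 in the wild-type line and 89.6 and 89.4 in the mutated line. The 2 IAA libraries of the control line were the lowest of these 8. In serum it was at 94.6 and 95.2 without IAA and 82.5 and 87.5 with IAA. Of the sites called in all 12 libraries of both sets, 5.79% stood below both untreated libraries with IAA in each medium, as did 9 of 48 member sites, some of which share a peak. In these 12 libraries the same peak also covered the neighbouring site at 1.52 kb, which lacks the consensus, so the values belong to a peak that spans both. The Nes site at 16.0 kb was called in all 8 CTCF-line and all 4 serum libraries, at 70.6 and 76.2 against 73.8 and 79.5 with IAA in the control line and at 59.2 and 79.1 against 26.4 and 63.6 in serum. The site in the Olig1 coding exon was called in all 12 libraries of these sets, at 84.8 to 93.4 in the CTCF-line set. The Pax6 site was called in all 8 CTCF-line libraries and in 3 of 4 serum libraries. The Nes site at −0.751 kb was called in both untreated and 1 of 2 IAA libraries in each medium. The Neurog1 site was called in 1 untreated library and no IAA library in each medium, and in both libraries of the wild-type line.

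**Figure D3:**
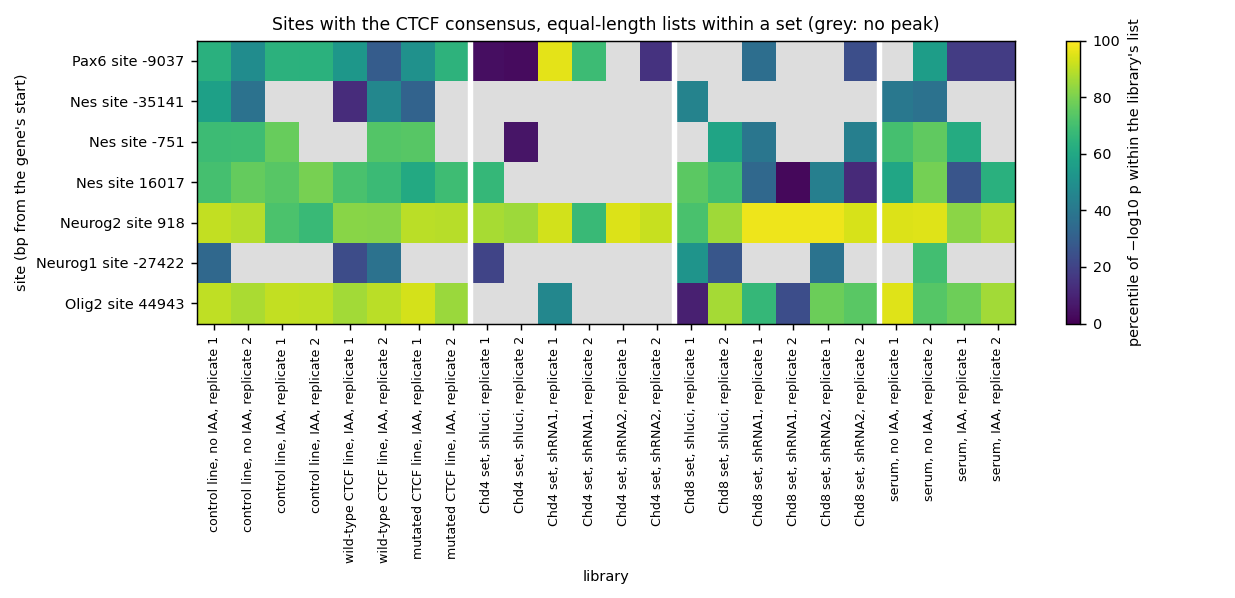
Percentile of the strongest peak (colour) at the 7 member sites with the CTCF consensus (rows, named by gene and bp from its outermost start) in the 24 libraries (columns); grey marks no peak and white lines part the sets. The Nes site at −35.1 kb is grey in the 4 control-line and serum libraries with IAA, and the Neurog2 coding-exon site is coloured in every library.

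Degradation of CTCF changed few of the 147 sites. A site was called lost when both untreated libraries and no IAA library called it, and gained when only the IAA libraries did so. In serum-free medium 6 were lost (3.52% of all sites) and 7 gained (2.91%), and in serum 3 were lost (2.04%) and 5 gained (2.24%). These counts are near the shares over all sites. The lost sites in serum-free medium were 1 each at Pax6, Nes, Neurog2, Sox1, Zic1 and Olig2, and the gained ones 2 at Pax6, 3 at Zic1 and 2 at Olig2. In serum the changes lay at Sox1, with 2 lost and 4 gained, and at Nes, with 1 lost and 1 gained. Of the lost sites, 1 of 6 and 1 of 3 held the CTCF consensus, both times the Nes site at −35.1 kb, where 32.4% and 40.7% of all lost sites did. None of the gained sites held it, against 1.45% and 1.78%. Within 1 medium, with 2 libraries against 2, no single site can be tested below p = 0.333, the smallest p of an exact two-sided permutation test.

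The number of peaks per locus did not separate treated from untreated libraries in both media at any of the 7 genes. Over all coding genes 2.99% of loci were lower and 1.07% higher in both media without overlap, with 0 of 7 members in either direction. In the untreated control line Sox1 had 16 and 17 peaks and with IAA 15 and 16. Nes had 14 in both untreated libraries and 14 and 16 with IAA. In serum Nes had 13 and 11 peaks without and 11 and 9 with IAA, so the mean differences at Nes had opposite signs in the 2 media, and neither exceeded the overlap of the libraries. Averaged over both media, the difference was largest at Zic1, Neurog1 and Neurog2, at 0.75 peaks more for Zic1, with a pooled SD of 0.935 within groups, and fell by 0.75 for Neurog1 (SD 0.935) and for Neurog2 (SD 1.62). The exact permutation p over 36 arrangements was 0.556 for Zic1 and 0.611 for the other two, and all 7 had an adjusted p of 1 over all genes (Benjamini-Hochberg). The smallest p this design allows is 0.0556.

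Against the IAA-treated control line, the wild-type CTCF line lost 6 member sites (2.55% of all sites) and gained 4 (2.37%), and the mutated CTCF line lost 2 (1.92%) and gained 3 (2.25%). The 2 comparisons share the control-line IAA libraries, which are also the treated side of degradation in serum-free medium. The sites gained with wild type CTCF were those of Nes at −35.1 kb and Neurog1 at −27.4 kb, both with the CTCF consensus, and the Pax6 site at −12.3 kb and the Zic1 site at −4.13 kb. The sites gained with mutated CTCF were the Nes site at −21.1 kb and the Zic1 sites at 12.1 and −4.13 kb, and none of them held the consensus. Over all sites 25.6% of those gained with wild type CTCF and 20.3% of those gained with mutated CTCF held it, and the difference between the lines at the member sites was not tested. At Olig2 the 8 CTCF-line libraries gave 7 and 6 peaks in the untreated control line, 8 and 8 with IAA, 6 and 7 in the wild-type line and 5 and 6 in the mutated line. Both IAA control-line libraries were above the untreated, wild-type and mutated ones, while in serum Olig2 had 8 and 7 peaks without and 8 and 6 with IAA. At Neurog1 the wild-type line had 12 and 11 peaks against 9 and 10 in the IAA control line and 10 and 8 in the mutated line. At Zic1 the mutated line had 11 and 13 peaks against 10 and 9 in the IAA control line and 14 and 10 in the wild-type line. Without overlap against the IAA control line, the wild-type line was lower at 1 of 7 loci (12.8% of coding genes) and higher at 1 (10.1%), and the mutated line lower at 1 (10.7%) and higher at 1 (10.3%). With IAA against no IAA the control line was lower at 0 (13.8%) and higher at 1 (11.9%), and in serum lower at 0 (14.4%) and higher at 1 (7.12%), which was Zic1. The lower locus of both lines and the higher locus of the control line with IAA were Olig2, so the same 2 IAA libraries enter each call. These counts are near the shares over all coding genes. With 2 against 2 the exact permutation p of such differences cannot go below 0.333.

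**Figure D4:**
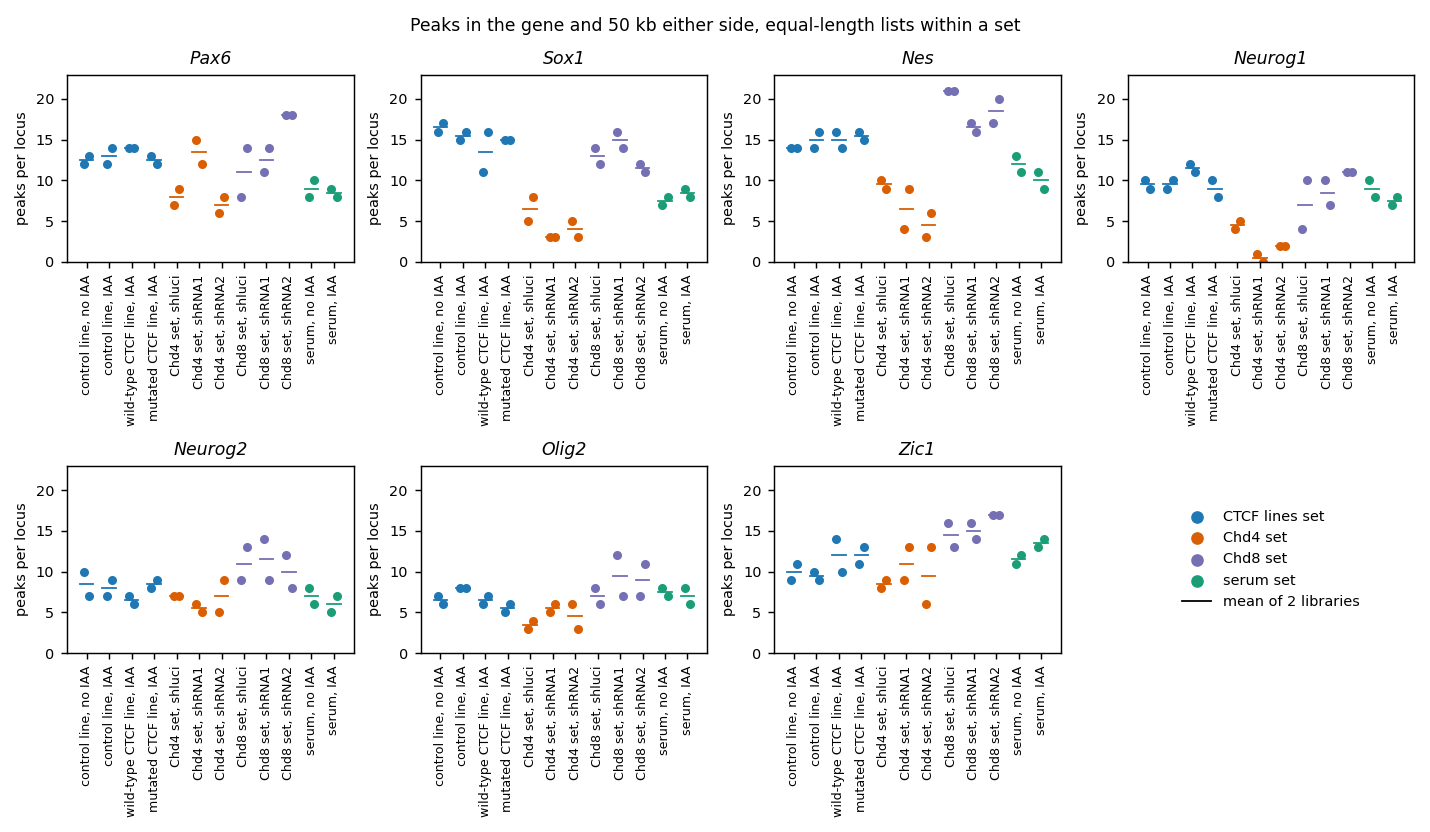
Peaks in the gene body and 50 kb either side (vertical) for each library (points, 2 per group) of the 12 groups, with the mean of 2 as a line, from lists of equal length within a set; colours mark the sets, whose lists differ in length. Neurog1 falls to between 0 and 2 peaks in the Chd4 shRNA groups, and Nes is at 21 in both Chd8 shluci libraries and below in the other 4.

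In the Chd4 set 1 of 7 loci, Neurog1, was lower without overlap, below the 23.9% of all coding genes that were. Its locus had 4 and 5 peaks with shluci, 1 and 0 with shRNA1 and 2 and 2 with shRNA2, so all 4 knockdown libraries were below both controls. The difference fell by 3.25 peaks (pooled SD 0.577), with an exact permutation p of 0.0667, the smallest possible over 15 arrangements, and an adjusted p of 0.295 over all genes. With flanks of 25 kb the Neurog1 groups overlapped. Of all coding genes 6.87% were higher without overlap, against 0 of 7. The shluci lists held 15501 and 16498 peaks at a −log10 q of at least 10 and the shRNA lists between 6930 and 8563, and its part in the Neurog1 result was not tested.

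The other 6 loci of the Chd4 set overlapped between shluci and the hairpins, though 1 hairpin could differ. Nes had 10 and 9 peaks with shluci, 4 and 9 with shRNA1 and 3 and 6 with shRNA2. Sox1 had 5 and 8, against 3 and 3 with shRNA1 and 5 and 3 with shRNA2. Both genes were lower on average, by 4 peaks at Nes (exact permutation p = 0.2) and 3 at Sox1 (exact permutation p = 0.133). Pax6 had 7 and 9 with shluci, 15 and 12 with shRNA1 and 6 and 8 with shRNA2, so shRNA1 was above the controls and shRNA2 overlapped them. With shRNA1 against shluci 3 of 7 loci were lower without overlap (31.9% of coding genes) and 2 higher (12.8%), each at the lowest exact permutation p that 2 against 2 allows, 0.333. With shRNA2 Nes and Neurog1 were lower without overlap and no member locus was higher, and the share over coding genes was not computed for this hairpin. The shluci libraries called 39 and 46 of the 147 sites, against 35 and 38 with shRNA1 and 23 and 33 with shRNA2, so all 4 knockdown libraries were below both controls. With all lists at 59786 peaks the groups overlapped, at 26 and 31 with shluci, 25 and 31 with shRNA1 and 23 and 28 with shRNA2. Over all sites the groups did not overlap at that length, at 22.2% and 23.5% with shluci against 20.2% to 21.3% in the knockdown libraries. In the set-length lists the order over all sites was the same, at 28.4% and 29.6% against at most 26.9% in the knockdown libraries. At the level of single sites, 2 of 147 were called by both shluci libraries and none of the 4 shRNA libraries (2.83% over all sites), and 0 were gained (1.19%). Both were in introns of Crabp2, the cellular retinoic acid binding protein gene upstream of Nes, at −18.8 and −18.3 kb. They stood at 13.4 and 38.2 and at 62.4 and 1.7 with shluci. In the CTCF-line set both were called in all 8 libraries, at 73.1 to 87.0, by a single peak that spanned them.

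In the Chd8 set Nes was the locus that differed. It had 21 and 21 peaks with shluci, 17 and 16 with shRNA1 and 17 and 20 with shRNA2, all 4 knockdown libraries being lower. The difference fell by 3.5 peaks (pooled SD 1.29), with an exact permutation p of 0.0667, again the smallest possible, and an adjusted p of 1 over all genes. With flanks of 25 kb, with base pairs covered in place of peaks, or at a −log10 q of at least 10, the Nes groups overlapped. Of all coding genes 4.30% were lower without overlap, against 1 of 7 members, and 4.26% were higher, against 0 of 7. Pax6 had 8 and 14 peaks with shluci, 11 and 14 with shRNA1 and 18 and 18 with shRNA2, and Neurog1 had 4 and 10, 10 and 7, and 11 and 11. Zic1 had 16 and 13, 16 and 14, and 17 and 17. For these 3 genes shRNA2 was above every shluci library and shRNA1 was not. With shRNA2 3 of 7 loci were higher without overlap (11.7% of coding genes) and 1 lower (13.6%), and with 2 against 2 an exact permutation test cannot go below 0.333. The 2 shluci libraries called 51 and 74 of the 147 sites, and the hairpin libraries called 72 and 50 with shRNA1 and 75 and 74 with shRNA2, so the groups overlapped. Over all sites the shares also overlapped, at 39.9% and 46.3% with shluci, 42.1% and 39.0% with shRNA1 and 45.9% and 47.0% with shRNA2. Both hairpins lost 1 of 147 sites (1.01% over all sites), the Neurog2 site at −20.1 kb in an intron of Zgrf1, at 28.3 and 55.1 with shluci. Gained was 1 site (0.552%), the intergenic Sox1 site at 50.2 kb, at 24.3, 19.6, 22.9 and 40.8 in the shRNA libraries.

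The serum and the serum-free libraries also differed at these loci. This comparison was added after the values had been seen, and all lists were cut to the shortest of the 24, 59786 peaks. The 4 serum libraries then called 80 to 86 of the 147 member sites and the 8 serum-free CTCF-line libraries 51 to 60, without overlap. Over all sites the order was the opposite, at 29.8% to 32.0% in serum and 32.7% to 36.8% in serum-free medium. The medium cannot be told apart from the set, since the serum libraries also differed in the overexpression construct and in list strength, with 18594 to 30537 peaks at a −log10 q of at least 10 against 67536 to 90477 in the CTCF-line set.

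Zic1 showed this most. Its locus had 11 and 12 peaks in serum without IAA and 13 and 14 with IAA, against 3 and 2 in the untreated control line, 5 and 3 with IAA, 2 and 4 in the wild-type line and 4 and 4 in the mutated line. The lowest serum library was above the highest serum-free library. Between the serum and control-line libraries, compared within each IAA state, the mean was 12.5 against 3.25 peaks, a difference of 9.25 (pooled SD 0.935). Olig2 had 8, 7, 8 and 6 peaks in serum against 3 to 4 in the 8 serum-free libraries, and Pax6 had 8, 10, 9 and 8 against 4 to 7. Neurog1 with 10, 8, 7 and 8 against 5 to 6 in the control line, and Neurog2 with 8, 6, 5 and 7 against 3 to 4, were also higher without overlap in both IAA states. Over all 8 serum-free libraries they reached 7 at Neurog1, in 1 library of the mutated line, and 5 at Neurog2, in 1 library each of the wild-type and mutated lines, which meet the lowest serum values. For these 5 genes the exact permutation p was 0.0556, the smallest possible over 36 arrangements, and the adjusted p over all genes was 0.221. Sox1 (8 against 6 peaks on average, exact permutation p = 0.167) and Nes (11 against 9.75, exact permutation p = 0.333) overlapped. Of all coding genes 14.0% were higher in serum without overlap, against 5 of 7 members, and 11.1% were lower, against 0 of 7.

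**Figure D5:**
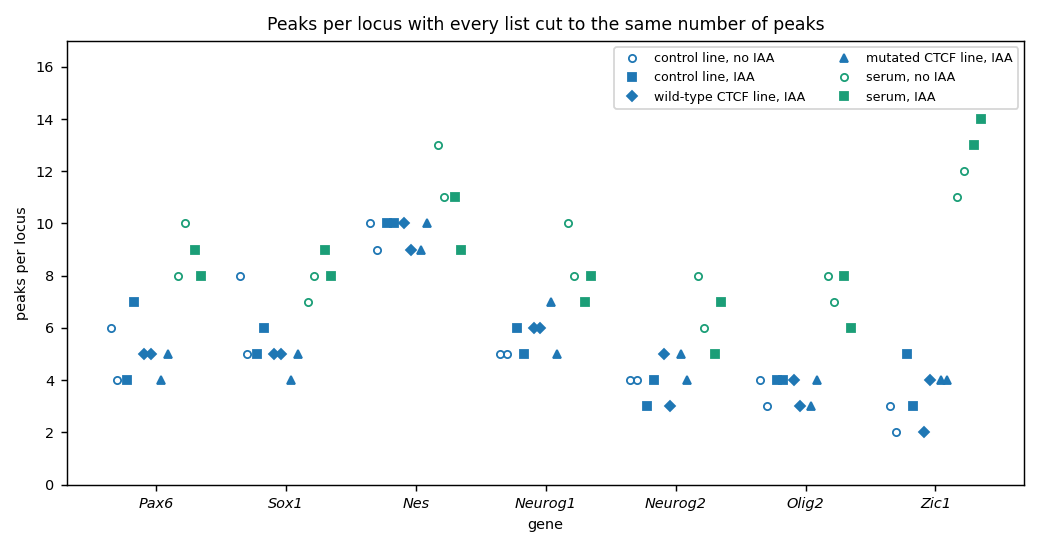
Peaks per locus (vertical) for the 7 genes in the 8 serum-free CTCF-line libraries (blue) and the 4 serum libraries (green), each point 1 library, with every list cut to 59786 peaks. The serum points of Zic1 lie between 11 and 14 and its serum-free points between 2 and 5, while the Nes points overlap.

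Direction at these loci depended on the length of the lists. With each list at the length of its own set, 120137 peaks in the CTCF-line set and 59786 in serum, no member locus was higher in serum without overlap and 3 were lower. The same held with deposited lists. At equal length 11 of 147 sites were called by all 4 serum libraries and no serum-free CTCF-line library, where 1.73% of all sites were, and 0 were called in the opposite way, where 4.00% were. With the longer serum-free lists 1 of the 11 remained, the intergenic Nes site at −24.5 kb, so the other 10 had a peak in at least 1 serum-free library there. Of the 11, Zic1 held 4, Pax6 and Neurog2 2 each, and Nes, Neurog1 and Olig2 1 each, and Sox1 none.

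The Zic1 sites called in serum were at 14.7, −13.0, −40.3 and −44.1 kb. The one at −13.0 kb was in a coding exon of Zic4, the neighbouring paralogue of Zic1, 198 bp from its start, and the 2 farthest were in the first intron of the noncoding gene Gm29478. The site at −44.1 kb stood at 62.6, 67.5, 62.7 and 67.4 in serum and was called in 3 of 8 serum-free libraries in the longer lists. The site at −40.3 kb stood at 31.2, 30.0, 50.9 and 55.1 in serum and was called in 5 of 8. Since the sites were picked for having no serum-free call in the shorter lists, their ranks are not compared between the media. These 2 are shown as the ones in an intron. Their centres are at chr9:91409767-91409967 and chr9:91406016-91406216, on the plus strand, and no motif searched for falls in either stretch.

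Zic1 site at −44.1 kb: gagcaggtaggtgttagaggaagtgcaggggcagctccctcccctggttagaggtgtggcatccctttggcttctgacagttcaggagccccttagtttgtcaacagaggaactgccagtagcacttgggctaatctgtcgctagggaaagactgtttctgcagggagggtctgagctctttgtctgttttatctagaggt
Zic1 site at −40.3 kb: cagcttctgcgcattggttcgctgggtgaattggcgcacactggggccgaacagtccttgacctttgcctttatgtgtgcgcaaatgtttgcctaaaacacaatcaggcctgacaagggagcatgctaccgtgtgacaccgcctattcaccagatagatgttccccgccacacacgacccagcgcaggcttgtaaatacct

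Of the 7 other sites called in serum, those of Pax6 lay at a promoter and the rest between genes. The Pax6 sites at −0.525 and −0.012 kb lay at its outermost start and stood at 37.8 to 73.9 in serum. In the set-length lists 19 and 16 of the 24 libraries called them. All 8 CTCF-line libraries called that start in the deposited lists. The Neurog2 sites at −5.27 and −4.63 kb were at 49.2 to 59.0 and at 32.7 to 74.8 in serum. They were called in 10 and 19 of the 24 set-length lists. The Neurog1 site at −8.10 kb was at 24.4, 45.0, 15.7 and 50.6, and the Olig2 site at 7.28 kb at 28.8, 4.5, 7.9 and 54.5, so 2 of its 4 calls were near the bottom of the list. The median GC content of the 11 sites was 56.1%.

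Other neural genes gave the setting for these results. Of 33 further neural regulators, 10 had a promoter called in all 24 libraries, among them Lhx2, Neurod4, Olig1, Pax3 and Sox3, and of 12 endoderm and mesoderm regulators 3 did, namely Foxa2, Mixl1 and Tbx20. The median promoter was called in 21 libraries for the neural list, 20.5 for the endoderm and mesoderm list, 19 for the 7 genes and 21 over all coding genes. At equal list length, 17 of the 33 neural loci were higher in serum without overlap and 0 lower, and 3 of the 12 endoderm and mesoderm loci were higher and 0 lower. The median difference was 1.5 peaks for the 33 neural genes, 0.875 for the endoderm and mesoderm genes, 3 for the 7 genes and 0 over all coding genes. Some of these loci overlap those of the 7 genes, as Olig1 does with Olig2 and Zic4 with Zic1, so their counts share peaks.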

How the data were processed

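The deposited narrowPeak lists gave for each peak an interval, a summit, a score, a fold (a ratio over background), a −log10 p and a −log10 q, all values of the authors within 1 library. The submitters' processing notes name Trim Galore, Bowtie2, MACS2, deepTools and mm10, without versions or settings. The −log10 p deposited by the authors ranked peaks within a list, and the deposited score and fold were not used further. Read depth is not given in the lists, so no counting interval was computed. All 2958411 peaks lay within the GRCm38 chromosomes.

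Lists were reduced to equal length within each of 4 sets. Sites were windows of 250 bp to either side of summits from all lists, called by any overlap and kept with at least 2 libraries (233707 of 405820). Peaks per locus were compared over all 21938 coding genes by exact permutation of library labels, two-sided, with Benjamini-Hochberg adjustment over all genes. Functions were tested on simulated intervals, with Python 3.11.15, numpy 2.4.6 and pandas 2.3.3. Promoter GC content was computed from the GRCm38 sequence, 500 bp to either side of the start.

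The members and lists were chosen with earlier results of these data known. Named sites were the one nearest each start, the one with the highest mean percentile over 1 kb from any start, those lost or gained in both media, up to 4 changed in each direction in each Chd set, and those with the CTCF consensus in at least 12 libraries. Sites called in all 24 libraries, in serum alone, gained in the CTCF lines, or with the consensus in fewer libraries were named after their values were seen. One site called in all 24 libraries is not reported here. Alternatives were other list lengths, overlap rules, flanks, each library left out and pairing by replicate number.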

Additional observations from a re-analysis of the deposited data

How the results depend on the processing

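Counts of changed sites were small and moved with the settings. All lists at 59786 peaks gave 2 lost and 4 gained sites for degradation in serum-free medium, 3 lost and 0 gained for the wild-type line, 1 lost and 0 gained for the mutated line, 0 lost and 1 gained in the Chd4 set and 0 gained in the Chd8 set. Deposited lists gave 2 gained in serum-free medium, 10 gained in serum, 2 lost with the wild-type line, 1 lost with the mutated line, and 2 lost and 2 gained in the Chd8 set. A −log10 q of at least 10 gave 4 gained in serum-free medium, 0 lost in serum, 2 gained with the wild-type line, 0 lost with the mutated line, 1 lost and 1 gained in the Chd4 set and 0 lost in the Chd8 set. Coverage of 50% gave 4 gained in serum-free medium, 1 lost and 3 gained in serum, 2 gained with the wild-type line, 5 lost in the Chd4 set and 0 lost and 0 gained in the Chd8 set. A summit in the site gave 5 lost in serum, 7 gained with the wild-type line, and 5 lost and 5 gained with the mutated line. Flanks of 25 kb gave 3 gained in each medium, 2 gained with the wild-type line and 0 gained in the Chd8 set, and 100 kb gave 13 lost and 11 gained in serum-free medium, 7 lost in serum, 4 lost with the mutated line, 6 lost and 1 gained in the Chd4 set and 3 lost in the Chd8 set. Promoters called in all 24 libraries numbered 1 within 500 bp of a start and 0 at a −log10 q of at least 10.

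Locus counts moved too. In the Chd4 set lower loci numbered 2 with deposited lists, 0 with 25 kb, and 3 with 100 kb or with base pairs covered, and higher loci 1 with deposited lists and 1 with 100 kb. The lower Nes locus of the Chd8 set was lost at 25 kb, with base pairs covered and at a −log10 q of at least 10 (0 each), where 1 locus was higher. In the serum comparison deposited lists and set-length lists gave 0 higher and 3 lower, and a −log10 q of at least 10 gave 0 higher and 4 lower, and base pairs covered gave 3 higher. There the signs reversed: −8, −7.25 and −7.25 peaks at Sox1, −3.5, −3.75 and −5 at Nes, −4, −3.5 and −4.75 at Pax6, −1.25, −0.25 and −4.5 at Neurog1 and −1.75, −2 and −2 at Neurog2 with set-length lists, deposited lists and the −log10 q limit, −0.25 and −1.75 at Olig2 with deposited lists and that limit, and −2.5 at Zic1 with that limit. The serum lists are shorter under these settings. Sites in serum alone numbered 1 with set-length and 1 with deposited lists, 0 at the −log10 q limit, 6 with 50% coverage, 5 with a summit and 23 among libraries without IAA. Sites in serum-free medium alone numbered 9, 4, 17 and 1 under the first 4 settings, 3 with 100 kb and 3 without IAA.

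Leaving out 1 library relaxes the rule. Lost and gained sites then ranged from 8 to 12 and 10 to 12 for serum-free degradation, 4 to 10 and 7 to 12 for serum, 8 to 15 and 5 to 10 for the wild-type line, 4 to 10 and 4 to 9 for the mutated line, 3 to 14 and 0 to 2 for the Chd4 set and 1 to 4 and 1 to 6 for the Chd8 set. Sites in serum-free medium alone ranged from 0 to 2, lower and higher Chd4 loci from 1 to 2 and 0 to 1, and higher Chd8 loci from 0 to 2. Pairing libraries by replicate number (replicate block) gave the same counts, with 6 lost sites in serum-free medium. For lost and gained sites this was fixed by the rule, since every library enters a pair. Only the locus counts could have moved. Same-numbered libraries correlated at −0.157 to 0.0415 over 8 pairs of groups. Crossing the numbers where this was under −0.1 changed no count, and for lost and gained sites it could not. Of 335 settings of the compared counts, 212 stayed within 1.5 times of the reported count. The 212 include the paired and crossed settings of sites, which could not move. Depth is not known, so a missing call is not an absence of accessibility.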
